A study of Mus musculus with 3 samples.

Results

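The mRNAs of 10 genes subject to genomic imprinting were examined among the RNAs that came down with YTHDF2, a reader protein of N6-methyladenosine (m6A), in mouse embryonic stem cells (ESCs). The genes were Peg3, Peg10, Mest, Igf2, Igf2r, Cdkn1c, Grb10, Plagl1, Dlk1 and Rtl1, taken by symbol from the table of counts, and all 10 were found among its 49997 genes. Each library came from cells of the E14 line treated with doxycycline (Dox) for 24 h, and the study compared the RNA recovered by anti-YTHDF2 immunoprecipitation (IP) with input RNA by RNA immunoprecipitation sequencing (RIP-seq). In the cell system of the study Dox switches on a Dux transgene, and the cells also carry a tdTomato transgene under the Mervl promoter, which marks cells that enter a 2-cell-like (2C) state. The groups were 1 input library and 2 YTHDF2 IP libraries, replicates 1 and 2, called IP1 and IP2 below, so every library shared the transgenes and the Dox treatment. Libraries from cells without Dox and an IP with a control antibody were not analysed here. Differences are therefore between IP and input within Dox-treated cells, and binding of RNA to beads or to the antibody itself cannot be told apart from binding to YTHDF2. Nothing in the labels says whether the 2 IP libraries came from separate cultures, so p-values measure the spread between these libraries, which may be technical.

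An imprinted gene is transcribed mainly from the copy inherited from one parent, because DNA methylation laid down in the egg or the sperm marks the copies differently. Many imprinted genes act on growth of the embryo and placenta, and paternally expressed genes such as Igf2 tend to promote growth while maternally expressed genes such as Igf2r and Cdkn1c tend to restrain it. YTHDF2 binds m6A in mRNA and recruits the deadenylase machinery, which shortens the life of the bound transcript.

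Total counts were 36986994 in the input, 35259827 in IP1 and 35888743 in IP2. The label of the cells was checked against marker genes. The 10 ESC markers lay between 273 and 1888 TMM-scaled CPM, counts scaled to library size, in the input, whereas the 20 markers of other cell types reached at most 28.1 CPM, with 11 of them under 1 CPM and 3 at 0. Summed, the ESC markers gave 9515, 9389 and 9380 CPM in the input and IP1 and IP2, and the markers of other cell types gave 59.1, 74.9 and 66.0 CPM. By log2 fold change in IP over input, Pou5f1 was at 0.40, Sox2 at 0.83 and Nanog at -0.56. Sox1, a neural factor, was the single marker of another cell type called, at 374 input counts against 1285 in IP1 and 1175 in IP2. The part of other cell types in the results below was not tested. In bulk libraries, fewer cells that express a gene and less RNA per cell cannot be told apart.

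The sequence GGACT is a common form of the context in which m6A is placed, and m6A is known to gather near stop codons. It was searched for in the sense strand of 1 RefSeq transcript per gene (GRCm38.p6, the assembly of mm10). All 10 imprinted transcripts held at least 1 copy, as did 91.5% of the 15011 protein-coding transcripts examined among genes tested. A copy within 250 bases of the stop codon was present in Peg3, Cdkn1c and Grb10, which is 3 of 10, against 45.5% of those 15011 transcripts. A match of these letters is no evidence of methylation or of binding. The sites are shown 5′ to 3′ on the strand of the transcript with GGACT in capitals. The first set holds every copy in Peg10 and Mest, the members at opposite ends among the well-counted ones, with Peg10 on the plus strand of chromosome 6 in the 5′ untranslated region (chr6:4747344-4747372), in the coding sequence (chr6:4754919-4754947 and chr6:4754963-4754991) and in the 3′ untranslated region (chr6:4759324-4759352), and Mest on the same strand in the 3′ untranslated region (chr6:30747553-30747581).
Peg10 site in the 5′ untranslated region: ggcaagcagtccGGACTcccgatacacgc
Peg10 first site in the coding sequence: tgggcctgttgtGGACTactccaatgcat
Peg10 next site in the coding sequence: aggacctggattGGACTgagcctgccctg
Peg10 site in the 3′ untranslated region: caggtacctcttGGACTcctgaattgatc
Mest site in the 3′ untranslated region: cccagtttctgtGGACTttattaaaatat

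The second set holds the copies near a stop codon, all from genes on the minus strand. The Peg3 sites lie at chr7:6707360-6707388 and chr7:6707296-6707324, the Cdkn1c site in its coding sequence at chr7:143459802-143459830, and the Grb10 sites at chr11:11933351-11933379 and chr11:11933292-11933320.
Peg3 site nearer the stop codon: tgtatacataccGGACTtcacatcaaaga
Peg3 site farther from it: cattgaacgcagGGACTctttcagtttta
Cdkn1c site: gtcctgcacccgGGACTgctgcggccaat
Grb10 site nearer the stop codon: actcccacccaaGGACTcagaacaacatg
Grb10 site farther from it: caattagttattGGACTtcacaaagattt

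The question of the comparison was which transcripts associate with YTHDF2 in cells with active DUX. Enriched and depleted genes had a fold change over 2 together with a Benjamini-Hochberg p-value below 0.05, from the quasi-likelihood test of edgeR over 19601 genes. None of the 10 imprinted genes was enriched, where 15.2% of all genes tested were, and 5 of 10 were depleted, where 14% of all genes tested were. The depleted genes were Igf2, Mest, Rtl1, Plagl1 and Grb10. The count of 0 enriched by edgeR was also 0 at an unadjusted p-value under 0.05 with the same fold, and 0 by DESeq2 (12.5% of all genes), which called 4 genes depleted (10.6%). It was also 0 with library totals (16.9% of all genes), with scaling to TPM, that is per exonic length (18.2%), with the GC trend removed (12.3%) and with the dispersion of 0.1 (8.05%). Without the limit on the fold, 1 gene was higher in IP (28.5% of all genes) and 6 were lower (30.1%), and 3 did not pass the test, namely Peg3, Cdkn1c and Dlk1. Both IP libraries lay below the input for 9 of the 10 genes, against 45.3% of all genes, and above it for Peg10 alone, against 44.2%. The median log2 fold change of the 10 genes was -0.92, beside 0.0065 over all genes tested. Igf2 passed the filter on low counts through the input alone and so had to differ. Without it 4 of 9 genes were depleted and the median was -0.80. Grb10 and Plagl1 lay close to the fold of 2, and 3 of the 10 genes were depleted when libraries were scaled by their totals (11.9% of all genes), to TPM (11.1%), or when every gene was given a dispersion of 0.1 (7.81%).

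**Figure D1:**
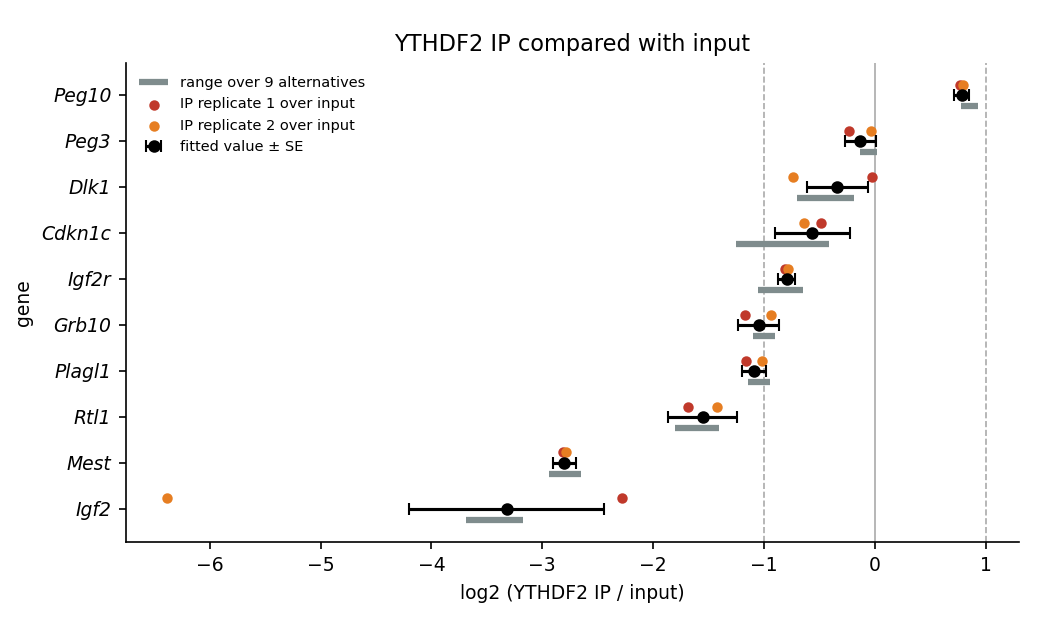
Log2 ratio of YTHDF2 IP to input (x axis) for the 10 imprinted genes (y axis). Black points with bars give the fitted value ± SE, red and orange points each IP library against the input after adding 0.5 to each count, grey bars the range over the 9 processing alternatives with a test, and dashed lines a fold change of 2. Peg10 is the single gene right of 0, and the single-library points of Igf2 lie 4.11 apart.

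Taken by parent of origin, 4 of the 7 paternally expressed genes (Peg3, Peg10, Mest, Igf2, Plagl1, Dlk1 and Rtl1) were depleted (14% of all genes tested), with a median log2 fold change of -1.09. Without Igf2, which passed the filter through the input alone, 3 of 6 were depleted and the median was -0.71. Of the 3 maternally expressed genes (Igf2r, Cdkn1c and Grb10), 1 was depleted, with a median of -0.80. The order of the medians thus turned with Igf2, and the difference between the groups was not tested.

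Peg10 is derived from a retrotransposon and encodes Gag-like and Gag-Pol-like proteins needed for the placenta. It lies at chr6:4747306-4760517 on the plus strand, with 2 merged exons of 6667 bases in all. Its counts were 4900 in the input, 8510 in IP1 and 8836 in IP2. Both IP libraries were above the input and close to each other. In TPM, a level per exonic length, it stood at 40.9 in the input and at 77.4 in IP1 and 78.7 in IP2. On the log2 scale the difference was 0.78 ± 0.0651 (SE), and edgeR gave an adjusted p-value of 3.32e-18, a 1.72-fold higher level that stayed under the fold of 2. Its log2 fold change stood at percentile 74.4 of all genes tested. When every gene was given a dispersion of 0.1 the adjusted p-value was 0.373.

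Rtl1 is the other member of retrotransposon origin, a Gag-Pol-like gene active in the capillaries of the placenta. It lies at chr12:109564900-109604418 on the minus strand. The counts were 203 in the input against 64 and 78 in IP1 and IP2. Both IP libraries fell well below the single input library. The log2 fold change was -1.55 ± 0.309 with an adjusted p-value of 9.84e-06 by edgeR, a 2.94-fold lower level. The annotation gives this gene 30762 exonic bases, whereas its coding RefSeq transcript has 6358 bases. Of the exonic bases, 6420 (20.9%) are shared with exons of 17 other genes, 4091 of them with Meg3, a maternally expressed noncoding RNA on the opposite strand. The others were 6430411K18Rik, a noncoding gene sharing 1315 bases, and microRNA genes, all with a count of 0 in every library. By the defaults of the counting tool, reads over exons of more than 1 gene were left out. Strand was not used by the authors, so over the exonic bases that are not shared, Rtl1 reads and reads of opposite-strand RNA cannot be told apart. Meg3 itself had 4023 input counts, with 2371 in IP1 and 2817 in IP2, a log2 fold change of -0.67 ± 0.0793. Without Rtl1 4 of 9 imprinted genes were depleted (14% of all genes), with a median log2 fold change of -0.80.

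Mest encodes a membrane protein of the α/β-hydrolase fold expressed in mesoderm, and its promoter is methylated on the maternal copy. It lies at chr6:30733506-30748466 on the plus strand. The input held 3008 counts of Mest, IP1 held 436 and IP2 held 452. The IP libraries were far below the input and differed little from each other. In TPM it had the highest level of the 10 genes in the input, at 57.2, and stood at 9.03 and 9.17 in the IP libraries. The log2 fold change was -2.80 ± 0.107 with an adjusted p-value of 2.57e-37 by edgeR, a 6.96-fold lower level, at percentile 2.06 of all genes tested. Of its 2928 exonic bases, 913 (31.2%) are shared with Copg2, a coatomer subunit gene on the opposite strand, which is itself imprinted in some tissues. Copg2 had 2392 input counts, with 1115 in IP1 and 1070 in IP2. It was depleted less, by a log2 fold change of -1.17 ± 0.0962 (adjusted p = 2.08e-18 by edgeR).

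Plagl1 and Peg3 encode zinc finger proteins. Plagl1 (chr10:13090832-13131694, plus strand) is a transcription factor that regulates a network of other imprinted genes and can halt the cell cycle. It had 1870 counts in the input, 852 in IP1 and 956 in IP2, so both IP libraries lay below the input. The log2 fold change was -1.09 ± 0.105 with an adjusted p-value of 3.28e-15 by edgeR, a 2.13-fold lower level. Its fold fell under 2 with scaling by library totals, with TPM and with the trend on GC content removed, at log2 values of -0.99, -0.94 and -0.95, and with every gene at a dispersion of 0.1 the adjusted p-value was 0.156. Peg3 (chr7:6703892-6730462, minus strand), which takes part in placental function and maternal behaviour, did not pass the test. It had 695 counts in the input, 604 in IP1 and 701 in IP2, and its log2 fold change was -0.13 ± 0.142 with a 95% interval from -0.41 to 0.15 (adjusted p = 0.442 by edgeR). The input lay within the range of the IP libraries in raw counts, and above both after scaling. The sign of the Peg3 value turned with TPM and with the trend on GC content removed. The noncoding genes that overlap their exons, Hymai over 218 bases of Plagl1 and Peg3os over 865 bases of Peg3, had a count of 0 in every library.

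**Figure D2:**
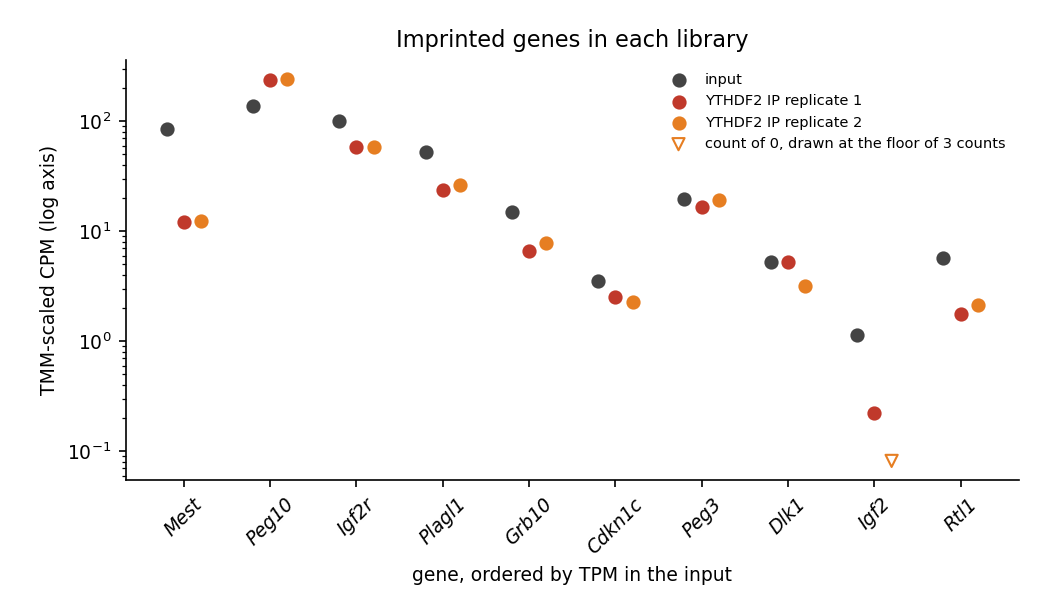
TMM-scaled CPM (y axis, log scale) of the 10 imprinted genes in the input (black), YTHDF2 IP1 (red) and IP2 (orange), ordered along the x axis by TPM in the input. The open triangle marks the Igf2 count of 0, drawn at the floor of 3 counts. Mest dropped from 85.0 CPM in the input to 12.1 in IP1 and 12.3 in IP2, while Peg10 went from 138 to 236 and 241.

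Growth factor signalling is represented by Igf2, a fetal growth factor, by Igf2r, the receptor that carries it to lysosomes for breakdown, and by Grb10, an adaptor that dampens signalling from the insulin and IGF1 receptors. Igf2 (chr7:142650768-142666816, minus strand) had few reads. Its counts were 40 in the input (exact Poisson 95% interval 28.6 to 54.5), 8 in IP1 (3.45 to 15.8) and 0 in IP2 (0 to 3.69), and these intervals cover counting error only and are too narrow, since both mates of a pair were counted. The input was above both IP libraries, as it had to be, since Igf2 passed the filter on low counts through the input alone. The fitted log2 fold change was -3.32 ± 0.88 with an adjusted p-value of 0.000762 by edgeR, but 0.546 by DESeq2. With its count of 0 set to a floor of 3, IP2 was 13.8-fold lower than the input after TMM scaling. This is no lower bound, since the interval of IP2 reaches 3.69 counts. IP1 alone gave Igf2 a log2 fold change of -2.33. Its exons share 98 bases with the opposite-strand Igf2os, which had 2, 8 and 4 counts in the 3 libraries.

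Igf2r (chr17:12682406-12769706, minus strand) had 3568 counts in the input, 2082 in IP1 and 2143 in IP2. Both IP libraries were lower by a similar amount. The log2 fold change was -0.80 ± 0.0797 with an adjusted p-value of 1.44e-14 by edgeR, a 1.74-fold lower level that did not pass the fold of 2. Removing the trend on GC content gave -1.05 and a call as depleted, and the dispersion of 0.1 gave an adjusted p-value of 0.33. The antisense RNA Airn, whose gene body covers 447 of its exonic bases, had 3 counts in the input and 2 in each IP library over its own exons, none of which overlap those of Igf2r. Grb10 (chr11:11930499-12037428, minus strand) had 528 input counts, with 239 in IP1 and 286 in IP2, both below the input. Its log2 fold change was -1.05 ± 0.183 with an adjusted p-value of 6.35e-07 by edgeR, a 2.07-fold lower level. With IP2 alone it was -0.93, under the fold of 2, and the same held with library totals at -0.95 and with TPM at -0.90, while the dispersion of 0.1 gave an adjusted p-value of 0.18.

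Cdkn1c and Dlk1 both restrain a step of development, Cdkn1c as an inhibitor of cyclin-dependent kinases and Dlk1 as a transmembrane relative of the Notch ligands that holds back differentiation of fat cells. Cdkn1c (chr7:143458339-143461059, minus strand) had 125 input counts, with 91 in IP1 and 83 in IP2. Although both IP libraries were lower, the log2 fold change of -0.56 ± 0.337 did not pass the test (adjusted p = 0.147 by edgeR, 95% interval -1.22 to 0.098). With the trend on GC content removed, it was -1.25 with an adjusted p-value of 0.00121. Dlk1 (chr12:109452485-109463336, plus strand) had 187 counts in the input, 188 in IP1 and 116 in IP2. The replicates disagreed, since IP1 was level with the input and IP2 was below it. The log2 fold change was -0.34 ± 0.278 (adjusted p = 0.301 by edgeR, 95% interval -0.88 to 0.21). With the trend on GC content removed it was -0.70, with an adjusted p-value of 0.0275 and a fold under 2. Its single-library log2 ratios were 0.715 apart, while genes with 100 to 1000 input counts had an SD of 0.305 for this difference.

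The make-up of the imprinted RNA differed between IP and input. The 10 genes together held 15124 counts in the input (0.0409% of the library), 13074 in IP1 (0.0371%) and 13651 in IP2 (0.0380%). Peg10 supplied 32.4% of these counts in the input (Wilson 95% interval 31.7 to 33.1), but 65.1% (64.3 to 65.9) and 64.7% (63.9 to 65.5) in the IP libraries. Mest went the other way, from 19.9% (19.3 to 20.5) to 3.33% and 3.31%. The share of Igf2r was 23.6% in the input and 15.9% in IP1 and 15.7% in IP2. These intervals cover counting error only and are too narrow, since both mates of a pair were counted. Shares within a fixed set move together, so a higher share of Peg10 lowers the others. In the input, the order of TPM ran from Mest (57.2), Peg10 (40.9), Igf2r (22.2) and Plagl1 (19.5) through Grb10 (5.61), Cdkn1c (3.50), Peg3 (3.36) and Dlk1 (2.13) to Igf2 (0.392) and Rtl1 (0.367). The place of Rtl1 rests on its annotated 30762 exonic bases, against 6358 in its coding transcript. How many of its reads lie in that transcript is not known, so its place is uncertain. With 1 input library, no spread is known for this order. The level of 6 of the 10 genes lay below the input median of the protein-coding genes tested, 9.43 TPM.

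**Figure D3:**
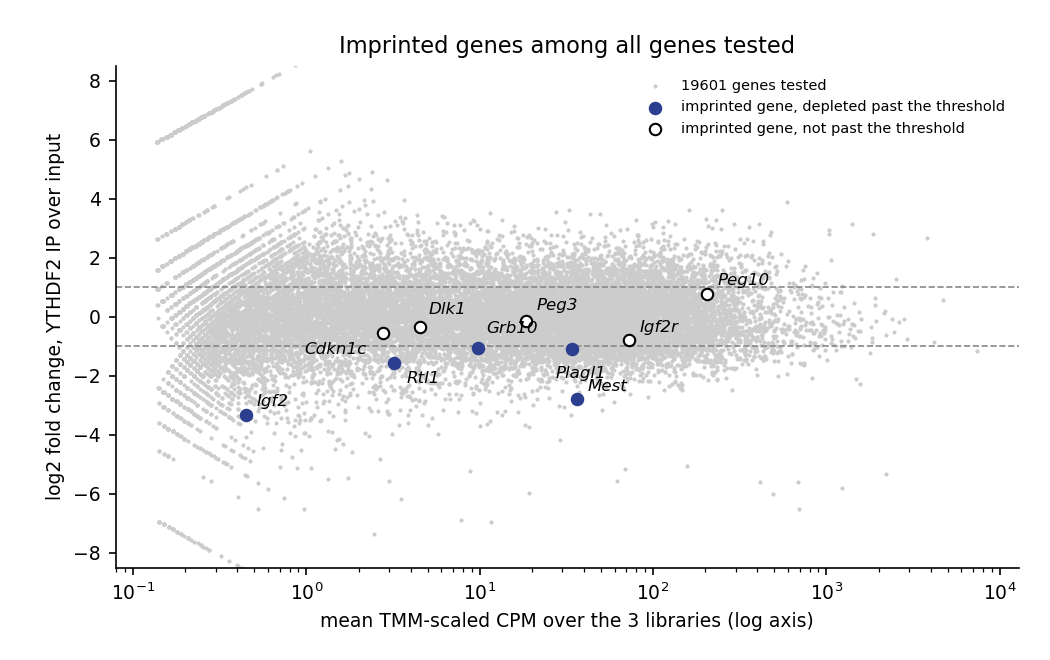
Log2 fold change of IP over input (y axis) against mean TMM-scaled CPM over the 3 libraries (x axis, log scale) for the 19601 genes tested (grey). Filled circles are imprinted genes depleted past the threshold and open circles those not past it, dashed lines mark a fold change of 2, and 14 genes beyond the y axis are not drawn. The imprinted genes span low to high levels, and Mest stands apart below the bulk of genes at its level.

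Sequence composition moved with the fold change across all genes. The median log2 fold change rose with the GC content of merged exons, from -0.78 in genes with up to 40% GC to 0.79 in genes over 60%, and the share of depleted genes went from 35.5% to 2.80%. The imprinted genes had a median GC content of 49.9%, close to the 50.4% of the 15197 protein-coding genes tested and placed on main chromosomes. Mest (48.1%), Grb10 (48.6%), Plagl1 (46.2%), Peg3 (46.2%) and Peg10 (47.2%) fell in the band from 45 to 50%, where the median log2 fold change was -0.14 and 15.3% of genes were depleted. In that band Peg10 was above the median and Mest far below it. Igf2r and Rtl1 (51.3% each), Dlk1 (54.3%) and Igf2 (54.5%) fell in the band from 50 to 55%, where the median was 0.17 and 8.52% of genes were depleted, and all were below that median. Cdkn1c, at 59.6%, had the highest GC content of the 10 and lay below the 0.37 of its band. With the GC trend removed as an offset, 6 of the 10 genes were depleted against 14.1% of all genes. The genes also had longer exonic sequence than the protein-coding genes tested, with a median of 5511 bases against 3580. The density of GGACT was similar, at 1.03 and 1.04 per kb.

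**Figure D4:**
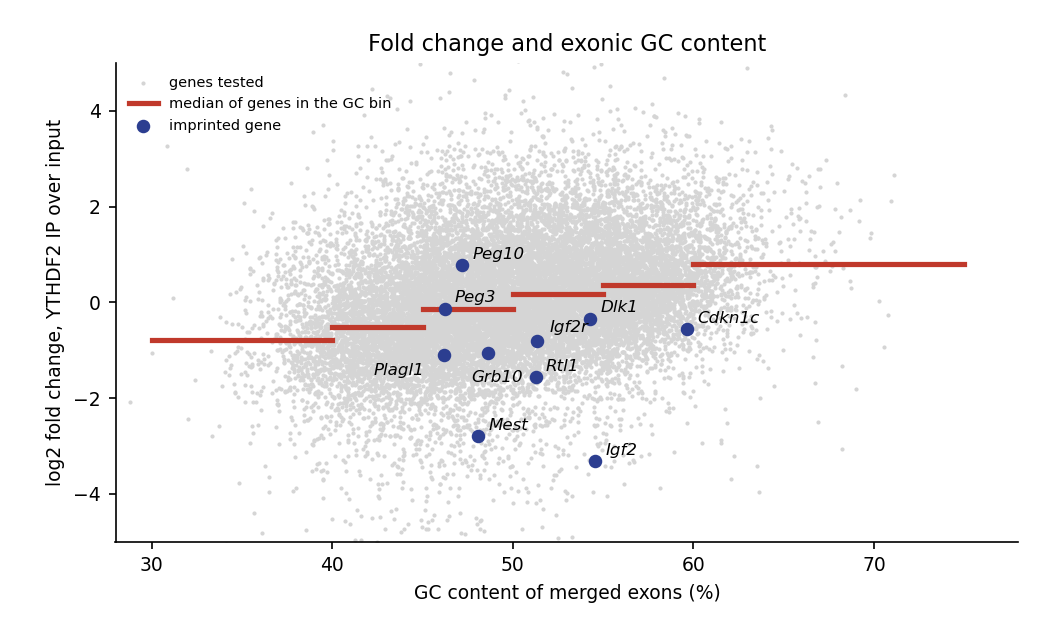
Log2 fold change of IP over input (y axis) against GC content of merged exons (x axis, %) for genes tested (grey), with the 10 imprinted genes in blue and the median of each GC band as a red line. The band medians climb from -0.78 to 0.79, and 9 of the 10 imprinted genes lie below or near the line of their band while Peg10 lies above it, with 342 genes beyond the axes not drawn.

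The pattern was set beside other imprinted protein-coding genes. Of 72 such genes listed, 58 could be tested, and 12 were enriched (20.7%, against 15.2% of all genes) and 12 depleted (20.7%, against 14%), with a median log2 fold change of -0.21. The lowest input level among the 58 was 0.0848 CPM, under the filter level of 0.279 CPM. A gene at that level passed the filter through the IP alone and had to be higher there. How many of the 58 passed through one group alone was not counted. With every gene at a dispersion of 0.1 these counts were 6 and 6 (8.05% and 7.81% of all genes), and with the GC trend removed 7 and 9 (12.3% and 14.1% of all genes). Without the limit on the fold, 16 were higher (28.5% of all genes), 24 were lower (30.1%) and 18 did not pass the test. Chrac1, a small subunit of chromatin remodelling complexes, rose from 555 input counts to 5124 in IP1 and 5058 in IP2, a log2 fold change of 3.16 ± 0.101 (adjusted p = 3.65e-42 by edgeR). Peg12 rose from 80 counts to 366 and 320, a log2 fold change of 2.06. Slc38a4, an amino acid transporter of the placenta, dropped from 16930 counts to 4271 and 3793, a log2 fold change of -2.11 ± 0.0611 (adjusted p = 3.6e-41 by edgeR). Xlr4b, which has near-identical copies and is therefore uncertain, had 198, 43 and 44 counts and a log2 fold change of -2.22. The difference of this list from the 10 genes above was not tested.

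The IGF pathway around Igf2, Igf2r and Grb10 was read from 4 lists with 32 genes, of which 26 could be tested. Of these, 3 were enriched (11.5%, against 15.2% of all genes) and 0 depleted by edgeR (14% of all genes), with 0 depleted also by DESeq2 (10.6% of all genes) and at an unadjusted p-value under 0.05 with the same fold, and the median log2 fold change was 0.34. None of the 3 other ligands (Igf1, Ins1 and Ins2) reached the level needed for the test. The 3 enriched genes were among the 7 binding proteins tested, which had a median of 0.035. The lowest input level among these 7 was 0.0565 CPM, under the filter level of 0.279 CPM. A gene at that level passed the filter through the IP alone and had to be higher there, and the 3 may include it. Igfals, the acid-labile subunit that holds IGFs in serum complexes, rose from 68 counts to 335 and 349, a log2 fold change of 2.29. Igfbp3, an IGF carrier, rose from 2304 counts to 4860 and 4814, a log2 fold change of 1.03 ± 0.0779. The 3 receptors had a median of 0.77 and the 16 adaptors and kinases tested a median of 0.34. Among the receptors the lowest input level was also 0.0565 CPM, so the receptor at that level had to be higher in IP, and their median includes it. No gene of either list passed the threshold by edgeR (15.2% of all genes enriched and 14% depleted), by DESeq2 (12.5% and 10.6%) or at an unadjusted p-value under 0.05 with the same fold (3166 and 2896 of the 19601 genes). Without the limit on the fold, 9 of the 16 adaptors and kinases were higher (28.5% of all genes) and 5 were lower (30.1%), and 1 of the 3 receptors was higher. Igf1r, the signalling receptor for IGF2, had 1667 input counts, with 1799 in IP1 and 1891 in IP2, with a log2 fold change of 0.11 (adjusted p = 0.345 by edgeR).

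Relatives of the 10 genes that are not known to be imprinted were read from 13 genes tested, of which 4 were enriched (15.2% of all genes) and 1 was depleted (14%), with a median log2 fold change of 0.62. DESeq2 called 3 enriched (12.5% of all genes) and 1 depleted (10.6%). The lowest input level among the 13 was 0.0283 CPM, under the filter level of 0.279 CPM. A gene at that level passed the filter through the IP alone and had to be higher there, and the median includes it. Rtl8b and Rtl8a, which like Rtl1 descend from a retrotransposon Gag gene, rose from 51 to 655 and 545 counts and from 47 to 471 and 473 counts. Their log2 fold changes were 3.51 and 3.28, but these neighbours are near-identical copies and their split of reads is uncertain. Cdkn1b, a kinase inhibitor related to Cdkn1c, dropped from 1468 counts to 596 and 510, a log2 fold change of -1.45 ± 0.123 (adjusted p = 1.03e-17 by edgeR). Among 12 regulators that set or guard imprints, 0 were enriched by edgeR (15.2% of all genes), by DESeq2 (12.5%) or at an unadjusted p-value under 0.05 with the same fold, and 3 were depleted (14% of all genes), with a median of -0.68. Without the limit on the fold 10 of the 12 were lower (30.1% of all genes), and 10 lay below the input in both IP libraries (45.3%). Ctcf, the insulator protein that binds the control region of Igf2, had 7585 input counts, with 2158 in IP1 and 2353 in IP2, a log2 fold change of -1.79 ± 0.0702. Arid4a, a chromatin protein, had 1248, 455 and 443 counts and a log2 fold change of -1.51.

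**Figure D5:**
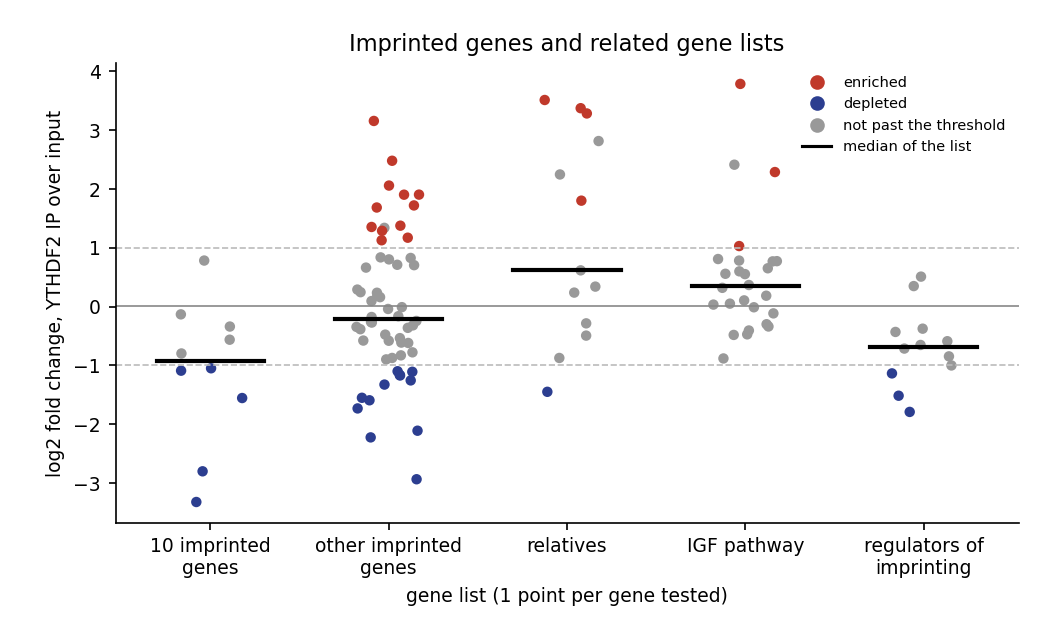
Log2 fold change of IP over input (y axis) for each gene tested in 5 gene lists (x axis), with enriched genes in red, depleted genes in blue, genes not past the threshold in grey and the list median as a black line. The 10 imprinted genes have no red point and a median of -0.92, whereas the 58 other imprinted genes have 12 red and 12 blue points around a median of -0.21, where 15.2% of all genes were enriched and 14% depleted. With every gene at a dispersion of 0.1 the 12 and 12 became 6 and 6, against 8.05% and 7.81% of all genes.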

How the data were processed

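The 3 RIP-seq libraries, all from E14 ESCs given Dox for 24 h, were assigned by sample title to input (1) or YTHDF2 IP (2). Per the methods of the study, YTHDF2 was precipitated from cleared lysate, whereas the labels describe Trizol-extracted total RNA used in the IP. The counts do not settle which was done. The deposited values are raw counts per gene. The authors aligned reads to mm10 (submitters' notes: fastp 0.19.4, HISAT2 2.2.1, DESeq2 1.40.2), and per the file headers counted them over RefSeq exons with featureCounts 2.0.3 in paired mode without strand. Among low counts, 61.4% to 64.7% were even, as counting both mates of a pair gives, so sampling noise exceeds what the counts imply. By the defaults of that tool, reads over several genes or places were left out.

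Counts were fitted in R 4.3.3 with edgeR 4.0.16 (filterByExpr, TMM, robust quasi-likelihood F test, Benjamini-Hochberg over 19601 genes). Calls required a fold over 2 with an adjusted p-value under 0.05. The model has 1 residual degree of freedom, from the IP libraries alone, and a common dispersion of 0.00538. Fitted values use a prior count of 0.125. A floor of 3 counts equals 0.0811, 0.0851 and 0.0836 CPM in the input and IP1 and IP2 before TMM scaling. Coordinates, GC content and transcripts come from RefSeq on GRCm38.p6, to which all 49997 symbols matched. The test was also run on counts simulated at the common dispersion above, which cannot show whether that dispersion is too small. Alternatives were other scalings (RLE, library totals, TPM), no filter, DESeq2 1.42.0, a fixed dispersion of 0.1, halved counts, and removal of the trend on GC content or exonic length (loess span 0.3).

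The imprinted genes and the gene lists were chosen with earlier results of these data known. Named were all 10 genes, genes overlapping their exons (microRNA genes, all at 0 counts, as a group), Pou5f1, Sox2 and Nanog, and of each other list up to 2 called genes at either end that averaged 1 CPM or more and moved one way in both IPs. Meg3 and Copg2 entered as overlapping genes. Airn and Igf1r were added after their values were seen.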

Additional observations from a re-analysis of the deposited data

How the results depend on the processing

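Over the 10 imprinted genes and 9 alternatives with a test, 78 of 90 values kept their direction and side of the threshold, 8 lost the call, 2 gained it and 2 turned sign, both in Peg3 (0.016 with TPM, 0.0065 with the GC trend removed). Mest and Rtl1 were called under all 9. The depleted genes numbered 3 with library totals, 3 with TPM and 3 with a fixed dispersion of 0.1, where 1577 genes were enriched and 1531 depleted in all. The median log2 fold change of the imprinted genes was -0.83 with library totals, -0.77 with TPM and -1.07 with the GC trend removed, and -0.98 to -0.86 when either IP replicate was left out. TPM shifted the median of all genes by 0.147 and the GC correction by -0.115. Of all calls, 52% were enriched, against 62.1% with TPM, 46.5% with the GC trend removed and 45.6% with the exonic length trend removed. Of the 58 other imprinted genes tested, 6 were enriched and 6 depleted with the fixed dispersion (8.05% and 7.81% of all genes), and 7 were enriched and 9 depleted with the GC trend removed (12.3% and 14.1%). The cause was not tested. Leaving out IP replicate 1 gave a log2 fold change of -0.74 for Dlk1, and leaving out IP replicate 2 gave -0.02. No paired analysis was possible because the IP replicate numbers have no counterpart in the input. With 1 input, its own spread is unknown. Igf2 rests on 40 counts in the input and 8 in both IP libraries together.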
